A study of Mus musculus with 9 samples.

Results

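The DMSO-treated cultures of an Eµ-Myc lymphoma are described here by their RNA alone, as the expression state of the lymphoma clone before any drug is considered. The members are the 3 libraries of the count table whose column names hold DMSO, out of 9 libraries in the series. Per the labels, all 9 come from clone 4242 of an Eµ-Myc lymphoma grown in vitro, treated for 2 h in biological triplicate with the solvent DMSO, with 1 µM JQ1 or with 2.5 µM RG6146, both inhibitors of the BET bromodomain proteins. The 3 DMSO cultures therefore received vehicle and are not strictly untreated. Each library was made with a 3′ mRNA kit that yields about a single read per transcript near its poly(A) tail. No groups were compared and no test between groups was made.

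The Eµ-Myc mouse carries a Myc transgene under the immunoglobulin heavy chain enhancer Eµ, which is active in cells of the B lineage, and develops clonal B cell lymphomas. MYC is a transcription factor of growth genes, among them those for ribosome biogenesis, translation, nucleotide synthesis and glycolysis. B cells mature from pro-B and pre-B cells, which rearrange their immunoglobulin genes with the RAG recombinase, to immature and mature B cells with IgM and IgD on the surface, and from there to germinal centre and plasma cells. As a model the libraries are limited to a single clone, a single transgene and cells in culture. Reads of the transgene and of the endogenous Myc gene cannot be told apart in a count per gene.

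Levels are given as CPM, the count scaled to the library's total gene counts, with the synthetic ERCC spike-in rows left out. A gene is termed present where it reached 1 CPM in each of the 3 libraries and trace where it had counts without reaching that. Triplets of values are DMSO replicates 1, 2 and 3 in that order. As a tag is counted about once per transcript, levels of different genes are set side by side without a correction for length. A gene without a count in any of the 3 libraries has an upper limit of 3 counts of the pooled 12328261 gene counts, or 0.243 CPM. This limit and the Poisson intervals below cover counting error only.

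The 3 libraries held 5003725, 3410161 and 3914375 gene counts and between 16391 and 16957 genes with a count. Of 43629 listed genes, 11381 were present, and 7055 reached 10 CPM in each library. Of the 21551 protein-coding genes 9408 were present, the share beside which counts of list members below are to be read. A chi-square test of the counts over genes gave 6.28 to 11.3 per degree of freedom between pairs of libraries, more than sampling noise, so no library was treated as another deposited again. That the cultures were separate rests on the labels. Between libraries, 158 of the 5655 genes that averaged 20 CPM or more differed by more than 2-fold from the lowest to the highest, which is 2.79% of them, and 506 of the 9320 that averaged 5 CPM or more did so, which is 5.43%. Without replicate 2 the first of these counts was 97 and without replicate 3 it was 104. Among the groups of genes in which libraries stood apart, 2 are described further below. Summed myeloid markers lay at 177, 806 and 387 CPM, highest in replicate 2. Summed MHC class II genes lay at 84.9, 46.6 and 192 CPM, highest in replicate 3. Other lists shifted too: summed mitochondrially encoded genes lay at 61370, 55630 and 50370 CPM, highest in replicate 1. In bulk RNA, fewer cells of a type and less RNA per cell cannot be told apart.

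Overlapping genes need care in this table, because a read may have been counted for more than 1 of them. Of 731 pairs of genes that share exon bases and have a mean of at least 20 CPM each, 245 had counts within 5% of each other in each of the 3 libraries, and 21 of these pairs lie on opposite strands. Of the 11381 genes present, 9234 share no annotated exon base with another gene at 50% of their level or more. This is an upper limit, because the 105 present identifiers without a symbol have no exons in the annotation used. Overlaps with them were not checked. Where a partner at that level was found, it is named below for the present genes it touches.

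The label was checked first against its 5 markers, all of which were present. Ebf1, a pioneer factor of the B lineage, stood highest at 302, 300.0 and 291 CPM. Myc lay at 133, 117 and 109.8 CPM, a mean of 119.9 ± 11.9. Cd79b and Cd79a, the signalling chains of the B cell receptor, lay at 95.1, 93.5 and 131 CPM and at 44.6, 41.9 and 40.6 CPM. The exception in level was Pax5, the factor that holds cells in the B lineage. Its 38 counts came to 2.80, 2.64 and 3.83 CPM, pooled 3.08 CPM (95% Poisson interval 2.18 to 4.23), and Pax5 shares exon bases with 5730488B01Rik, which lay at 20.8, 17.6 and 25.3 CPM. Myc ranked number 1314 and Ebf1 number 476 by mean CPM among all genes, and Pax5 number 10236.

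Genes of translation led the protein-coding transcripts. The 10 most abundant genes took 20.6% ± 1.52 (SD, n = 3) of the counts and the 100 most abundant 38.2% ± 1.04. The first place was held by Gm42418, a noncoding gene that overlaps ribosomal RNA sequence, with 9.95%, 13.1% and 11.9% of the counts. Both mitochondrial ribosomal RNAs followed, mt-Rnr2 at 32126, 30187 and 27473 CPM and mt-Rnr1 at 12187, 11192 and 10398 CPM, with the identifier ENSMUSG00000045999, which has no symbol in the annotation used, between them at 16095, 16035 and 14877 CPM. Genes for cytosolic ribosomal proteins took 12.5%, 12.3% and 12.8% of the counts, and 81 of 85 were present. Rplp2 and Rplp1, which form the ribosomal stalk, led them at 6914, 7259.5 and 7859 CPM and 5047, 5340.2 and 5783 CPM, ahead of Rps14 at 4154, 5583 and 5715 CPM. The list and its share leave out Rps3a1, for ribosomal protein S3A, which lay at 3055, 3064 and 2974 CPM. The 4 listed genes that were not present were the paralogs Rpl3l and Rps4l, with 4 and 2 counts in all, and Rpl10l and Rpl39l, with none.

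**Figure D1:**
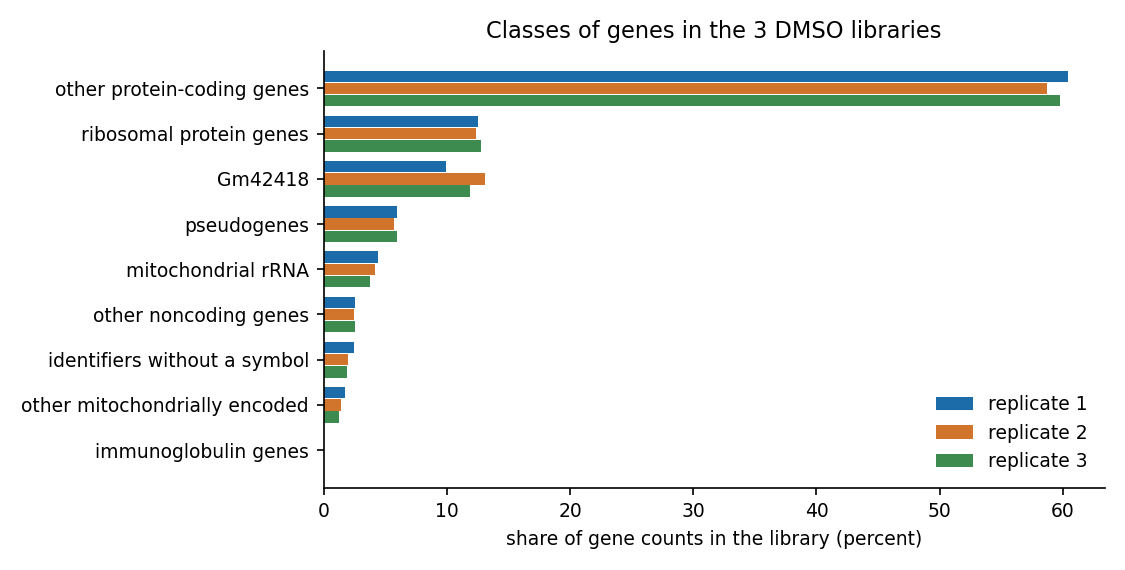
Share of gene counts (x axis, percent) in each class of genes, with a bar for each of the 3 DMSO libraries. The classes keep the same order of size in the libraries except for Gm42418, which lies above ribosomal protein genes in replicate 2 (13.1% against 12.3%) and below them in the other libraries. Immunoglobulin genes hold 0.058%, 0.05% and 0.058%.

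Outside the ribosome, the leading protein-coding gene was Pabpc1, the poly(A) binding protein of the cytoplasm, at 6306, 5235 and 4759 CPM. Next came Ptma, which encodes prothymosin alpha, a histone-binding nuclear protein, at 4762, 5390.1 and 5065 CPM, and the chaperone gene Hsp90ab1 at 4506, 5041 and 4737 CPM. Ncl and Npm1, for the nucleolar proteins nucleolin and nucleophosmin, lay at 4919.9, 4651 and 4513 CPM and 4153, 3659.9 and 3635 CPM. The values show a transcriptome led by genes of protein synthesis and folding, with a spread between libraries that was small against the levels. The elongation factor genes Eef1a1, Eef2 and Eef1b2 had means of 4144 ± 51.9 CPM, 2497 ± 28.8 CPM and 2266 ± 88.1 CPM. Eef1a1 shares exon bases with Gm26377, an annotated miRNA gene. Among the first 25 were also Serbp1, Tpt1, Hsp90aa1, Actb, Tuba1b, Hspd1, Rack1, Set, Ybx1, Pa2g4, Top2a, Chchd2 and Sub1, with means from 3001 CPM down to 1382 CPM. A gene of another kind in this range was Wdr89, which lay at 5000.1, 316 and 372 CPM, high in replicate 1 alone. The identifier ENSMUSG00000100259, which has no symbol, lay close to it at 4993, 311 and 367 CPM. The same reads may have been counted for both, and their overlap could not be checked in the annotation used. The pseudogene-like Rps12-ps3, annotated as protein-coding, lay at 1559, 1783 and 1839.6 CPM.

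All 34 listed MYC targets and all 25 listed cell cycle genes were present, with medians of 210.0 and 138 CPM. The nucleolar genes Dkc1, Nop56 and Nop58 had means of 791 ± 48.7, 601 ± 36.9 and 532 ± 27.5 CPM. Odc1, the first enzyme of polyamine synthesis, lay at 421, 425 and 495 CPM, and Tfrc, the transferrin receptor, at 227, 171 and 196 CPM. For proliferation, Top2a, the mitotic topoisomerase, lay at 1511, 1428 and 1404 CPM, above Mki67, the gene of the Ki-67 antigen, at 566, 496 and 462 CPM. Plk1 and Cdk1, kinases of mitosis, lay at 352, 405 and 396 CPM and 305, 366 and 402 CPM, and the replication genes Mcm7 and Pcna at 393, 422 and 440.4 CPM and 235, 193 and 186 CPM. In each list 1 gene differed by over 2-fold between the libraries, Ccnd2 at 46.0, 19.6 and 77.9 CPM among the MYC targets and Tk1, thymidine kinase, at 17.0, 17.0 and 37.6 CPM among the cell cycle genes. The lists hold genes known to be high in growing cells, and without another cell type in the series the level says nothing on MYC itself.

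Of 29 genes expressed through most of B cell development, 28 were present, and the exception, Fcmr, the IgM Fc receptor gene, had 5 counts. Cd24a, a surface glycoprotein high on early B cells, led at 647, 551 and 600.4 CPM. Pou2af1, the coactivator of octamer factors, and Bach2, a repressor of plasma cell differentiation, followed at 482, 487 and 543 CPM and 296, 283 and 323 CPM. Ikzf1, which encodes Ikaros, lay at 238, 257 and 216 CPM. Further down were Cd72, Fcrla and Irf8, with means of 199 ± 6.09, 179 ± 6.51 and 164 ± 10.7 CPM. The low end of the list held genes that differed between the libraries, described with the spread below. Ms4a1, which encodes CD20, lay at 21.6, 9.09 and 37.8 CPM and was lowest in replicate 2.

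Genes of the pro-B and pre-B stages were present in part, 16 of 28, and the split ran within functions. Vpreb3, which encodes an endoplasmic reticulum protein that binds immunoglobulin chains, lay at 264, 207 and 239 CPM. The surrogate light chain genes were near the limit: Vpreb1 lay at 2.20, 2.64 and 1.28 CPM and shares exon bases with Top3b, Igll1 had 4 counts in all and Vpreb2 had 1. Rag1 and Rag2, the recombinase pair, were low at 12.2, 9.09 and 8.94 CPM and 3.40, 2.05 and 5.11 CPM, and Rag2 shares exon bases with B230118H07Rik. Dntt, the terminal transferase of pro-B cells, had 2 counts, pooled 0.162 CPM (95% Poisson interval 0.0196 to 0.586). Il7r, the IL-7 receptor of early B cells, was present at 35.2, 35.8 and 27.1 CPM. The precursor genes Kit, Flt3 and Lef1 had 10, 12 and 12 counts in all, and Enpep had none. At the top of the list were genes with wider expression, Bcl7a at 445, 441 and 445 CPM, Cecr2 at 403, 372 and 354 CPM, Ybx3 at 365, 359 and 340.3 CPM and Myb at 153, 147 and 150.2 CPM.

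In the list of immature to mature B cells 20 of 26 genes were present. Ighm, the constant gene of the IgM heavy chain, led at 430.5, 328 and 384 CPM, and Igkc, the kappa light chain constant gene, lay at 65.8, 86.5 and 98.4 CPM. Ighd, for IgD, was far lower at 4.60, 2.93 and 7.66 CPM. Klf2, Tnfrsf13c and S1pr1, a quiescence factor, the BAFF receptor and the receptor for lymphocyte egress, had means of 60.8 ± 2.81, 37.0 ± 4.50 and 30.4 ± 6.40 CPM. The complement receptor gene Cr2 was trace, with 52 counts in all. Fcer2a, which encodes CD23 of mature follicular B cells, lay at 15.2, 3.81 and 28.6 CPM and so differed 7.51-fold between the lowest and the highest library.

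Heavy chain constant genes gave 4850 counts over the 3 libraries and Ighm took 98.5% of them. Igha had no count, and Ighg1 and Ighg2b had 3 and 3. Variable region tags were few. Of 175 heavy chain V genes 5 had counts, and Ighv10-1 took 128 of their 135 counts. Counts fell on 42 of 103 kappa V genes, led by Igkv3-4 with 211 of 534 counts, or 39.5%. The lambda V genes, only 3 in number, gave 114 counts, 111 of them from Iglv3, beside 78 counts of the lambda constant gene Iglc2 and 1009 of Igkc. A single V gene of 175 thus held nearly all heavy chain V counts, while kappa V counts were spread over many genes. The lead of Iglv3 is among 3 lambda V genes and is not comparable. As tags come from near the poly(A) tail, these few V counts do not measure which V genes the clone's immunoglobulin mRNA uses. Some V genes are close to each other in sequence, and how reads that match several of them were counted was not stated in the sources used here.

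Genes of later stages were split, with several present at high levels and others near or at 0. Of 18 germinal centre genes 7 were present, near the share over all protein-coding genes, 9408 of 21551. Ezh2, a histone methyltransferase also found in other dividing cells, lay at 237, 231 and 236 CPM, and the inhibitory receptor gene Fcgr2b at 40.97, 44.0 and 46.2 CPM. Bcl6, the master repressor of the germinal centre, lay at 1.60, 1.17 and 2.55 CPM. Rgs13, Mef2b, Nuggc and Gcsam had none. Of 17 plasma cell genes 10 were present, led by Mzb1, an endoplasmic reticulum cochaperone also made in marginal zone and B-1 cells, at 411, 471 and 467 CPM, and by the factor Irf4 at 109, 82.7 and 88.4 CPM. Prdm1, which encodes BLIMP1 and drives plasma cell differentiation, was barely present at 1.60, 2.35 and 1.53 CPM. Jchain, Tnfrsf17 and Igha had 8, 2 and no counts. In the marginal zone and B-1 list 6 of 15 genes were present, also near the share over all protein-coding genes. Bhlhe41, a factor of B-1 cells, led at 113, 108 and 99.9 CPM, ahead of Dtx1, a Notch regulator, at 33.2, 34.6 and 36.5 CPM. Cd5 had 1 count, and Ctla4 and Pla2g7 had none.

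**Figure D2:**
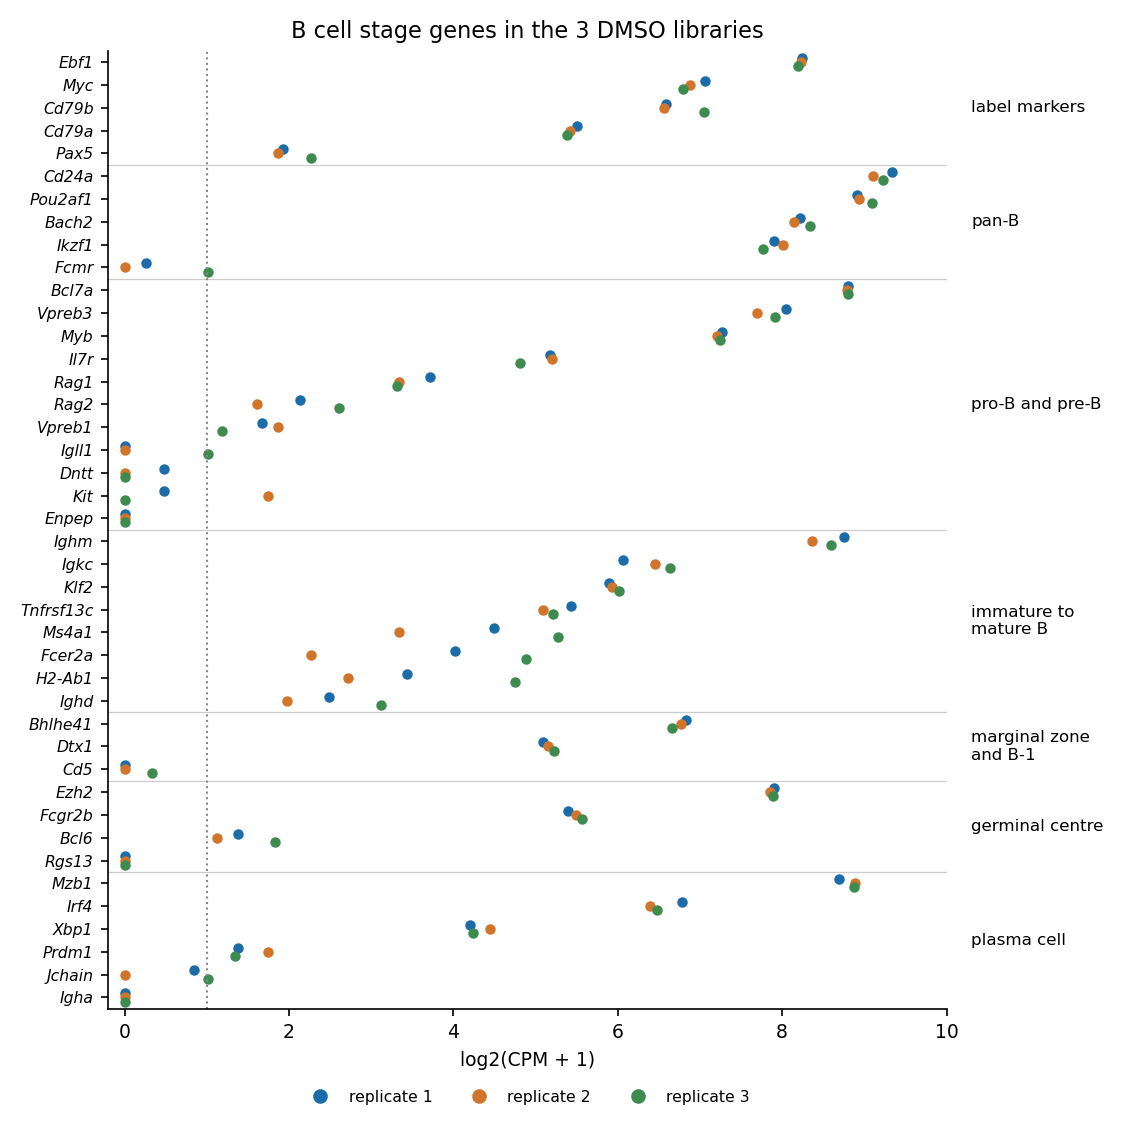
Level in log2(CPM + 1) (x axis) of genes of the B cell stages (y axis), with a point for each DMSO library and a dotted line at 1 CPM. Pan-B genes and Ighm lie far to the right, Rag1, Rag2 and Vpreb1 lie low but right of the line, and Dntt, Igll1, Rgs13 and Igha lie at or near 0.

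The machinery of the B cell receptor was nearly complete, with 29 of 33 listed genes present. The kinase genes Syk, Lyn and Btk had means of 93.5 ± 10.8, 76.4 ± 2.56 and 72.8 ± 3.75 CPM, and the adaptor Blnk 98.5 ± 4.02 CPM. Inhibitory members were present at like levels: Cd72, which shares exon bases with Tesk1, Siglecg at 55.2, 50.4 and 65.1 CPM, Cd22 at 55.96, 43.1 and 40.9 CPM and the phosphatase Ptpn6 at 45.4, 44.0 and 54.2 CPM. Downstream, Plcg2 lay at 38.8, 41.9 and 45.0 CPM and Pik3cd, the lymphoid PI3-kinase subunit, at 87.9, 96.5 and 91.2 CPM. The trace members were Cr2, Vav3, Ifitm1 and Cd5.

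Few genes of the chemokine and Toll-like receptor families were present. Of 23 chemokine receptor genes 2 were present, Cxcr4, the receptor for CXCL12, at 102.9, 155 and 146 CPM, and Ccr7, the receptor that guides cells to lymph nodes, at 18.6, 12.9 and 18.6 CPM. Cxcr5, the receptor of B cell follicles, was trace with 26 counts, and Cxcr3, Ackr1, Cxcr1, Ackr3, Ccr8, Ackr2, Ccr4 and Ccr3 had none. None of 12 Toll-like receptor genes was present. Tlr1, Tlr4 and Tlr9 had 10, 5 and 4 counts, and Tlr3, Tlr7, Tlr8, Tlr11 and Tlr13 had none. Of 28 TNF receptor genes 7 were present, led by Tnfrsf13b, which encodes TACI, at 83.1, 93.3 and 88.6 CPM, and Tnfrsf13c at 42.0, 33.1 and 36.0 CPM, which both bind BAFF. The third receptor of that group, Tnfrsf17 (BCMA), was trace. Cd40 lay at 5.60, 3.81 and 8.69 CPM and Fas, a death receptor, had 9 counts.

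Cytokine genes were nearly all trace or without counts. None of 19 TNF superfamily ligand genes was present, and Tnfsf13b, which encodes BAFF, had no count. Of 33 interleukin genes only Il16 was present, at 36.0, 31.1 and 34.5 CPM, and Il10 and Il4 had none. Il2 lay at 1.60, 0 and 3.32 CPM, so that 2 interleukin genes were present without replicate 2. Of 40 chemokine genes 2 were present, Ccl25, which shares exon bases with Elavl1, at 4.20, 2.93 and 2.30 CPM and Ccl9 at 1.40, 2.64 and 2.55 CPM. Interleukin receptors were more varied, with 13 of 41 present. Il17ra led at 91.5, 74.2 and 87.9 CPM, ahead of Il7r and of Il4ra at 19.98, 18.8 and 24.3 CPM, and Il2rg, the common gamma chain that IL-7 and IL-4 receptors use, lay at 14.6, 10.3 and 16.6 CPM. Of 5 interferon receptor genes 4 were present, from 7.10 CPM for Ifnar1 to 24.6 CPM for Ifngr1, and Ifnlr1 had no count.

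Integrin, lipid mediator and growth factor receptor lists were each led by a few genes. Itgb1 and Itga4, which together form the integrin VLA-4, lay at 108, 104 and 93.8 CPM and 98.3, 81.8 and 76.6 CPM, well above the next integrin, Itga9, at 15.4, 16.4 and 12.5 CPM. Itgax, Itga8, Itgb6 and Itga3 had no counts. S1pr1 lay at 26.8, 26.7 and 37.8 CPM and Cysltr1, a leukotriene receptor, at 56.4, 48.7 and 42.2 CPM. Cd44, a hyaluronan receptor, lay at 69.9, 77.1 and 88.1 CPM. Of 55 receptor tyrosine kinase genes 5 were present and Ryk, an atypical WNT receptor, led at 138, 145 and 122 CPM. Igf1r and Insr lay at 10.39, 10.3 and 11.5 CPM and 6.99, 6.45 and 7.15 CPM. Csf1r, the macrophage growth factor receptor gene, lay at 22.6, 23.8 and 21.2 CPM but shares exon bases with Hmgxb3, which lay at 28.6, 26.98 and 27.8 CPM. Lrp6 and Fzd9, WNT receptor genes, lay at 33.2, 36.4 and 35.0 CPM and 8.79, 11.1 and 10.7 CPM, and 6 of the 12 genes of that group had no counts. Notch2 and Notch1 lay at 15.8, 14.96 and 17.9 CPM and 9.79, 7.92 and 12.8 CPM, and Notch1 shares exon bases with Gm13568. Nr3c1, the glucocorticoid receptor gene, lay at 58.8, 47.8 and 51.3 CPM, while the nuclear receptor gene listed highest, Nr2c2, at 145, 132 and 123 CPM, shares exon bases with Mrps25 at 144, 123 and 127 CPM.

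Surface genes that speak to T cells and phagocytes were split by type. Cd47, the signal against phagocytosis, lay at 105, 98.5 and 101 CPM. Cd274, which encodes PD-L1, had 14 counts in all, pooled 1.136 CPM (95% Poisson interval 0.621 to 1.91), and Cd80 had 5. Class I antigen presentation was present through B2m at 157, 130.5 and 159 CPM, H2-D1 at 115, 101 and 124 CPM and H2-K1 at 101, 92.7 and 118 CPM, with the immunoproteasome gene Psmb8 at 108, 101 and 119 CPM. Of 100 genes whose symbol begins with Cd and a number, which include some that are not surface antigens, such as Cd2ap and Cd2bp2, 37 were present and 33 had no counts, Cd4, Cd3d, Cd28 and Cd33 among them.

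**Figure D3:**
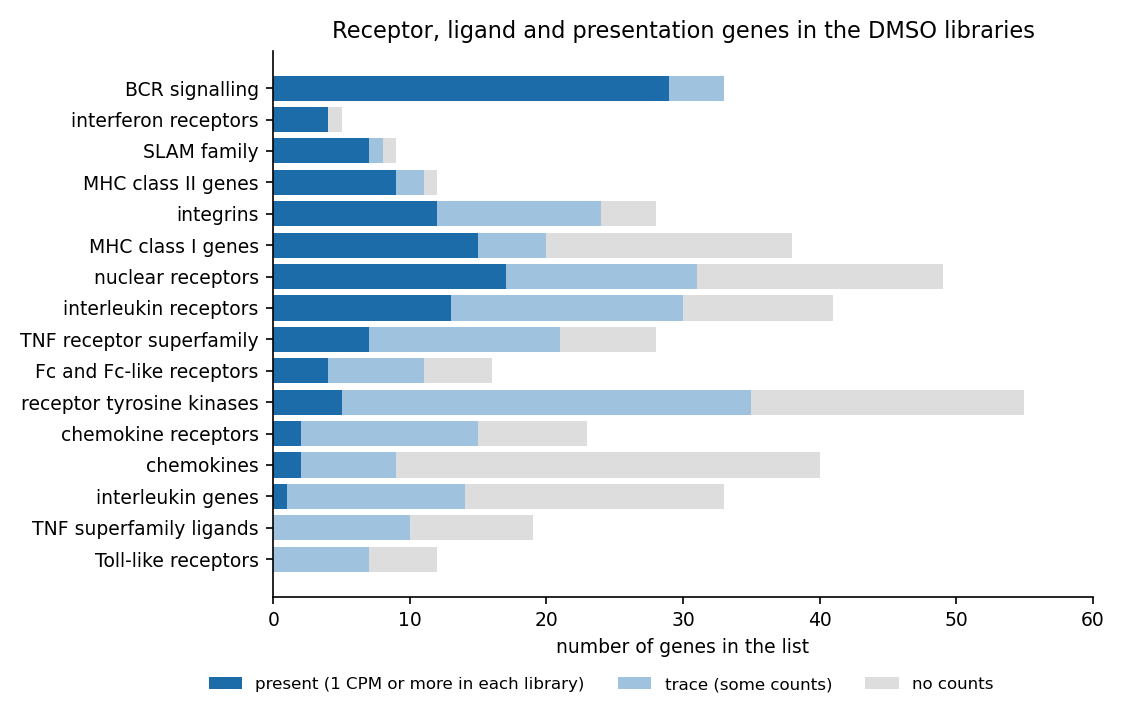
Number of genes (x axis) in 16 lists of receptors, ligands and presentation genes, split into genes present, trace and without counts in the 3 DMSO libraries. B cell receptor signalling is nearly complete (29 of 33), while no TNF superfamily ligand (0 of 19) and no Toll-like receptor gene (0 of 12) is present.

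Many gene families were reduced to a single leading member. Myc took 99.9% ± 0.145 (SD, n = 3) of the counts of the 3 MYC genes, with 1 count for Mycn and none for Mycl. Its partner Max lay at 148, 127 and 133 CPM, and the antagonists Mga, Mxd4 and Mxd3 had means of 132 ± 4.68, 80.9 ± 6.54 and 55.7 ± 3.52 CPM. Mxd3 shares exon bases with Prelid1. The BET genes, whose proteins read acetylated histones and are the targets of the drugs in the other groups, were led by Brd2 with 67.3% ± 5.26 of their counts, at 453, 602 and 601 CPM. Brd3 lay at 182, 145 and 174 CPM. Brdt, the testis member, had no count.

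Several metabolic families were held by a single form. Ldha, lactate dehydrogenase A, lay at 616, 469 and 497 CPM and took 99.96% ± 0.0333 of its family, while Ldhb had 1 count. Hk2 took 95.1% ± 1.56 of the hexokinase counts, Pkm 99.4% ± 0.317 of those of the pyruvate kinases and Aldoa 99.4% ± 0.378 of those of the aldolases. Slc16a1, the lactate transporter MCT1, took 99.3% ± 0.24 and lay at 106, 104 and 103.5 CPM. Impdh2, of guanine nucleotide synthesis, took 94.8% ± 0.764. Among glucose transporters Slc2a3 and Slc2a1 lay at 13.2, 10.6 and 10.22 CPM and 6.20, 7.62 and 5.36 CPM, and the nominal leader Slc2a12 shares exon bases with Tbpl1. In structural families Lmnb1, lamin B1, took 90.2% ± 1.67, while Lmna had 11 counts in all. Actb took 85.4% ± 0.647 of the actins, and the muscle genes Actc1 and Actg2 had none. Eef1a1 held all counts of its pair, since Eef1a2, the form of neurons and muscle, had none.

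Several signalling families were led by a form known from B cells, and others were not. Syk took 99.9% ± 0.198 against Zap70, its T cell counterpart, which had 1 count. Btk took 91.4% ± 3.55 of the TEC kinases, with no count for Bmx. Lyn took 77.9% ± 0.792 of the SRC family, with no count for Src and Fgr, and Blk, a member made mainly in B cells, lay at 4.20, 4.69 and 4.09 CPM. Among the PKC genes Prkce led with 35.8% ± 3.12, while Prkcb, which acts in B cell receptor signalling, lay at 20.4, 16.1 and 19.7 CPM. Plcg2 took 92.7% ± 2.13 against Plcg1, which shares exon bases with Zhx3, and Pik3cd 57.3% ± 1.78 of the class I PI3-kinase genes. Jak1 lay at 116, 86.8 and 111 CPM and took 85.5% ± 1.03 of its family, whereas Jak3, which pairs with the common gamma chain, lay at 3.60, 1.47 and 1.53 CPM.

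Transcription factor families differed in how far a single member led. Ebf1 took 94.3% ± 0.223 of the EBF genes and Foxp1 83.6% ± 1.47 of the FOXO and FOXP genes. Ikzf1 took 57.3% ± 2.05 of the Ikaros genes, with Ikzf5 and Ikzf3 at means of 99.5 ± 3.79 and 76.1 ± 1.75 CPM and no count for Ikzf4. Pou2af1 and Pou2f2 led the octamer group. Foxp1, a factor of early and follicular B cells, lay at 531, 551 and 564 CPM, and Foxp3, the regulatory T cell factor, at 18.4, 19.4 and 18.1 CPM, where Ccdc22, which shares its exon bases, lay at 18.4, 19.4 and 18.1 CPM. Of 39 HOX genes 2 were present, Hoxb9 at 8.79, 9.09 and 9.45 CPM and Hoxb4 at 7.99, 8.80 and 7.15 CPM, and 23 had no counts. None of 6 GATA genes was present. Of 19 SOX genes Sox4, a factor of pro-B cells, lay at 38.6, 44.0 and 34.5 CPM and shares exon bases with Gm26735, and Sox15 at 64.2, 56.6 and 46.2 CPM shares exon bases with Mpdu1.

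Mcl1 and Bcl2, inhibitors of apoptosis, lay at 151, 169 and 171 CPM and 137, 111 and 130.0 CPM, and Bcl2l1, which encodes BCL-XL, at 2.998, 1.76 and 4.34 CPM. The BH3-only gene Bcl2l11, for BIM, lay at 45.6, 39.0 and 40.4 CPM and Bid at 53.4, 56.9 and 51.1 CPM. Trp53 and its inhibitors Mdm2 and Mdm4 lay at 36.8, 36.9 and 39.9, 67.0, 62.8 and 69.2 and 104, 101 and 111 CPM. Cdkn1a, the p53 target p21, lay at 3.40, 2.93 and 5.36 CPM. Cdkn2a, which encodes ARF and p16, had 3 counts, pooled 0.243 CPM (95% Poisson interval 0.0502 to 0.711). Counts at the level of the gene do not show whether Trp53 or Cdkn2a carry a mutation or deletion. Ccnd1 led the D cyclins at 247, 265 and 260.1 CPM and shares exon bases with LTO1, at 184, 208 and 206 CPM. Ccnd3, the D cyclin of pre-B cells, lay at 82.3, 104 and 82.0 CPM and shares exon bases with Bysl. Ccnd2 at 46.0, 19.6 and 77.9 CPM differed by over 2-fold between the libraries. Dkc1, the dyskerin gene, held the counts of the telomerase group, Terc had 10 counts, and Tert had none.

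**Figure D4:**
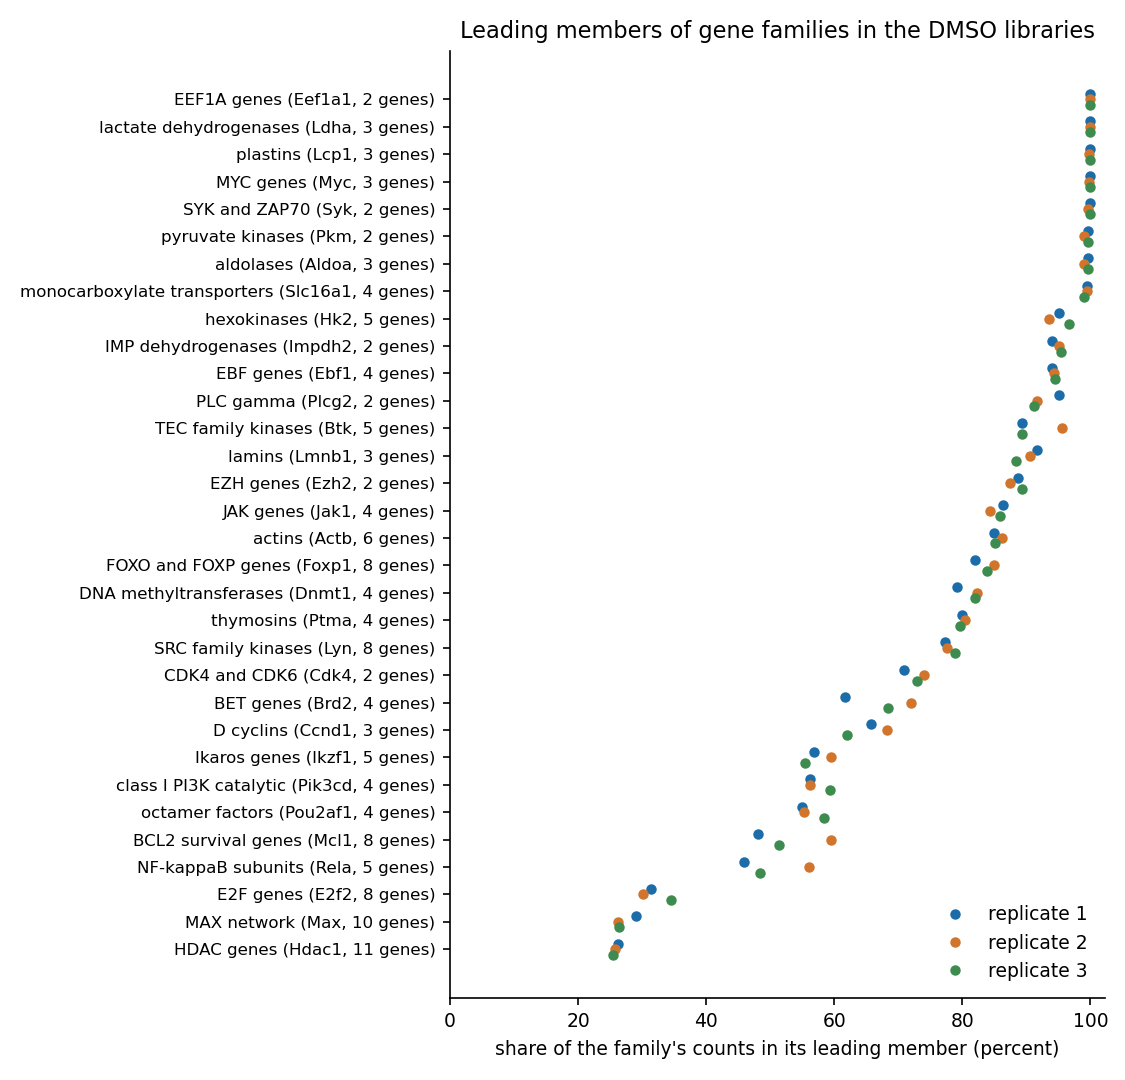
Share of a family's counts in its leading member (x axis, percent) for 32 families, with a point for each DMSO library. The MYC, lactate dehydrogenase, EEF1A and SYK families lie at or above 99.66% in every library, and the E2F, MAX and HDAC groups lie between 25.5% and 34.5%.

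Among noncoding genes Malat1, a nuclear RNA, lay at 1802, 1701 and 1972 CPM and Gas5, a host of small nucleolar RNAs, at 1069, 1006 and 1052 CPM. H19 had no count. Mir17hg, the host transcript of the miR-17 to miR-92a cluster, which MYC is known to activate and which speeds Eµ-Myc lymphoma, lay at 84.3, 83.9 and 88.4 CPM. The count is of the host RNA, and mature miRNAs were not measured. The 6 guide arms of that locus on chromosome 14, from RefSeq on GRCm38.p6, fall into 4 seed groups. They are shown because the host transcript stands for all of them, with the seed, bases 2 to 8, in capitals.
miR-17-5p: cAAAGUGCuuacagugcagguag
miR-20a-5p: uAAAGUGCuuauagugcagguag
miR-18a-5p: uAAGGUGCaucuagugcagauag
miR-19a-3p: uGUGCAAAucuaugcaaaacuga
miR-19b-3p: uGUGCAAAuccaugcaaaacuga
miR-92a-3p: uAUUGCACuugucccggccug
The arms miR-17-5p and miR-20a-5p share the seed AAAGUGC, and miR-19a-3p and miR-19b-3p share GUGCAAA.

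RNA of the sex chromosomes came from both. The Y-linked genes Ddx3y, Eif2s3y, Uty and Kdm5d lay at 91.3, 70.7 and 70.3, 26.8, 22.9 and 18.1, 16.6, 16.1 and 17.9 and 19.8, 13.8 and 14.1 CPM. Xist, the RNA that silences an X chromosome in female cells, lay at 22.2, 23.5 and 28.1 CPM beside Tsix, its antisense gene, at 14.8, 17.9 and 19.7 CPM. Xist and Tsix share exon bases on opposite strands and their counts cannot be told apart without a stranded count.

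The spread between libraries was concentrated in pseudogenes and in a few groups of genes. Of the 158 genes above 2-fold at a mean of at least 20 CPM, 106 were pseudogenes, which is 28.8% of 368 pseudogenes at that level, and 39 were protein-coding, which is 0.767% of 5083. The largest was Gm15198 at 1769, 5.86 and 17.4 CPM among pseudogenes with counts in all libraries, and Atp5l-ps2 lay at 0.999, 0 and 91.7 CPM. The 15 largest ratios were all of processed pseudogenes, of which BC085271 is annotated as transcribed. They include Rpl7a-ps10 at 7.99, 80.3 and 0.511 CPM, Gm13192 at 138, 7.62 and 1.28 CPM, Rpl35a-ps6 at 1.60, 89.1 and 124 CPM and Gm11425 at 477, 7.92 and 480.0 CPM. Processed pseudogenes can be near-identical copies of expressed genes, so these counts are uncertain. Their sequences were not compared with those of other genes here. Among protein-coding genes Sumo2, a ubiquitin-like modifier, lay at 65.6, 74.5 and 4.09 CPM. Wdr89 lay at 5000.1, 316 and 372 CPM, with the close values of ENSMUSG00000100259 as a limit on its count.

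Genes of MHC class II varied together between the libraries. Of 12 genes 9 were present, and 8 of these 9 were highest in replicate 3, then 1, then 2, an order held by 19.2% of all genes present. Cd74, the invariant chain, lay at 21.6, 7.62 and 35.3 CPM. The alpha and beta chain genes H2-Aa, H2-Ab1 and H2-Eb1 lay at 7.59, 1.76 and 20.4 CPM, 9.79, 5.57 and 25.8 CPM and 4.40, 1.17 and 22.2 CPM. H2-DMb2, of the peptide loading complex, lay at 5.20, 1.76 and 23.0 CPM, and Ciita, the coactivator of the class II genes, at 4.40, 1.76 and 7.66 CPM. Ciita shares exon bases with Dexi, which lay at 9.19, 9.38 and 10.5 CPM. Of the 8 class II genes that averaged 5 CPM or more, 6 differed by over 2-fold between the libraries, against 5.43% of all genes at that level. H2-Ob, which lay at 16.4, 17.9 and 25.3 CPM, did not follow the order. The list of immature to mature B genes, which also holds H2-Aa, H2-Ab1 and H2-Eb1, had this order in 13 of its 20 present members, Fcer2a among them. Ms4a1 of the pan-B list and Cd83 of the germinal centre list, at 7.39, 1.17 and 15.8 CPM, had it too. The order is not particular to these genes, since 5 of the 6 present genes in the list of cytochrome c oxidase forms had it, none of them differing over 2-fold. Dendritic cell markers, which share class II expression, summed to 18.4, 17.9 and 25.3 CPM, with Itgax at no count and 1 of 8 present, Bst2, or 2 of 8 without replicate 2. Their part in the class II values was not tested.

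Class II promoters are known to hold an X box and a Y box, bound by the RFX and NF-Y factors that CIITA joins. Since most members varied together, the 150 bases before the start of 4 of them are shown from RefSeq on GRCm38.p6, 5′ to 3′ on the gene's strand. Capitals mark the Y box letters GATTGG and the X box letters GCAACNNNTG on either strand. Both were chosen after reading these sequences, so their matches are a description and support nothing. H2-Eb1 (chr17:34305717-34305866, + strand), H2-Ob (chr17:34238755-34238904, + strand), H2-Aa (chr17:34287824-34287973, - strand) and H2-DMb2 (chr17:34145099-34145248, + strand) were taken.
H2-Eb1: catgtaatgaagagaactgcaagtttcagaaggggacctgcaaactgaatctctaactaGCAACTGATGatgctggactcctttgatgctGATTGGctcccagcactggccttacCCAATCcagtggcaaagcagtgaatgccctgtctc
H2-Ob: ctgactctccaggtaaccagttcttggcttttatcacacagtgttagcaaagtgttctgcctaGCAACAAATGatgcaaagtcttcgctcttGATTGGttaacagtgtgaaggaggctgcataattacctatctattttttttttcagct
H2-Aa: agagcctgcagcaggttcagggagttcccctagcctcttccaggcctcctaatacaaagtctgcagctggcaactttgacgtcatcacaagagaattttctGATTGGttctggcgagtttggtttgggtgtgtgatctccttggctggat
H2-DMb2: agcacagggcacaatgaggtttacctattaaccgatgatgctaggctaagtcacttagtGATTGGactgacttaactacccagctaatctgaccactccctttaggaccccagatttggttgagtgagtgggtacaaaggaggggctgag
The 4 were picked from 9 windows of 8 class II genes in the RefSeq table, of which 7 hold the Y box letters and 3 the X box letters. Neither window of H2-DMa holds any of them. Only these exact letters were searched for, so a window without them is not shown to lack an X box or a Y box. Over the 32851 windows of this length in the whole table, 10.9% hold the Y box letters, 1.28% the X box letters and 0.152% both. H2-Ob, which differed by less than 2-fold between the libraries, and H2-Eb1, which differed by more, both hold the 2 sets of letters.

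Myeloid genes were the second group that varied together, with 12 of 23 present. S100a8 and S100a9, calcium-binding proteins of neutrophils, lay at 54.8, 321 and 205 CPM and 32.8, 137 and 70.3 CPM. Mpo, myeloperoxidase of granulocyte precursors, lay at 31.0, 189 and 33.5 CPM and Prtn3, a granule protease, at 10.8, 56.3 and 9.96 CPM. Replicate 2 was highest in 10 of the 12 genes present, an order that 24.7% of all genes present had, and 10 of the 11 with a mean of at least 5 CPM differed by over 2-fold. Among other markers of myeloid cells Adgre1, the macrophage gene for F4/80, had no count, Csf3r had 1 and Cd14 2. Lyz2 lay at 2.00, 6.74 and 8.43 CPM. Replicate 2, the highest in summed myeloid markers, was the lowest in summed class II genes. The part of other cells in these values was not tested.

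Markers of other cells were low. The sum over T and NK cell markers was 32.8, 35.8 and 29.4 CPM, with Cd3d, Cd4 and Trac at no count, and their leader Cd247 at 18.99, 19.4 and 17.9 CPM shares exon bases with Pou2f1. Stromal and endothelial markers summed to 133, 144 and 133 CPM. Their 2 present members were Vim, the intermediate filament gene that lymphoid cells express too, at 104, 108 and 106 CPM and Pecam1, which encodes CD31 of endothelial and some blood cells, at 27.6, 33.7 and 26.6 CPM, while Col1a1, Col1a2, Col3a1, Dcn and Pdgfra had no counts. Mast and basophil markers summed to 0.999 to 3.52 CPM and erythroid and megakaryocyte markers to 7.59 to 14.8 CPM.

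**Figure D5:**
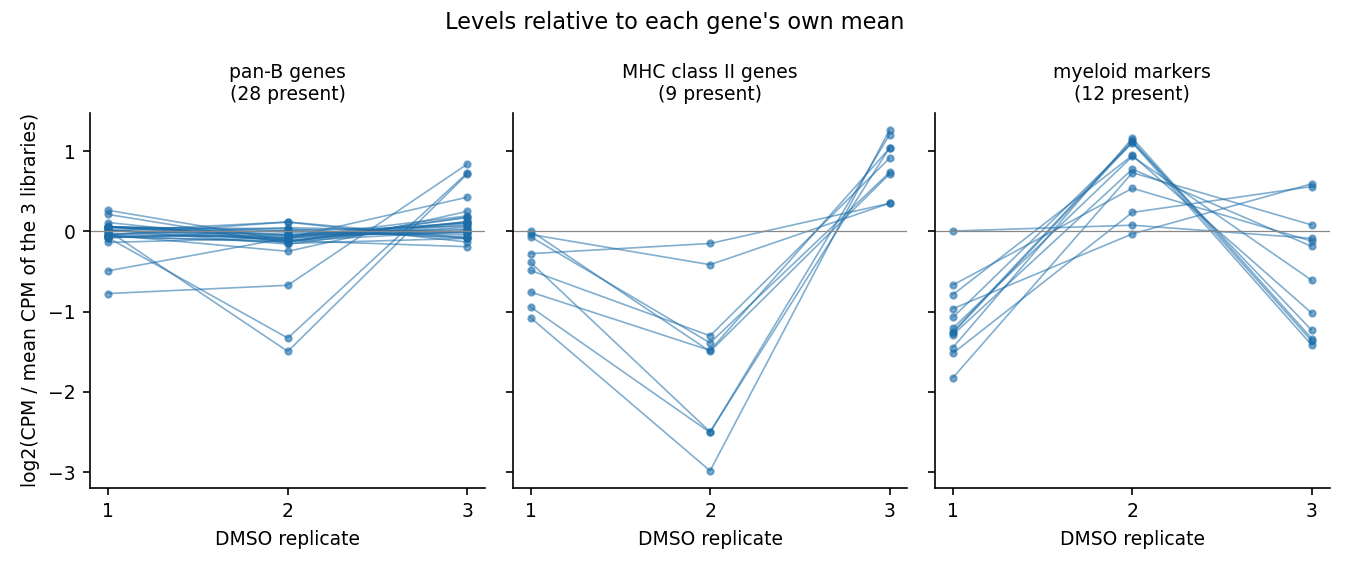
Level of each present gene relative to its own mean over the 3 DMSO libraries, as log2(CPM / mean) (y axis) by replicate (x axis), with a line that joins the points of a gene and implies no order. Most of the 28 pan-B genes lie near 0, the 9 class II genes lie lowest in replicate 2 or 1 and highest in replicate 3, and 10 of the 12 myeloid genes lie highest in replicate 2.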

How the data were processed

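Libraries of 3′ mRNA tags were sequenced from cultures of Eµ-Myc lymphoma clone 4242, and the 3 DMSO libraries of 9 were used. The values deposited by the authors are whole-number read counts per gene without normalisation. Per the submitters' processing notes, the tools were HISAT2 2.1.0, cutadapt 1.7, featureCounts of Subread, FastQC 0.11.5, limma and bcl2fastq 2.17.1.14, with the build mm10. Not given in the sources used here are the release of the annotation, whether strand was used and how reads with several matches were counted. Reads of overlapping genes and of near-identical copies may therefore be shared, split or dropped, and a 3′ tag carries no information on splicing.

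Symbols came from GENCODE M21 on the same build and were found for 42548 of 43629 identifiers. The 1081 without a symbol held 1.93% to 2.49% of the gene counts. The 92 ERCC rows held 1.13% to 1.51% of all counts and stayed out of library totals. CPM was computed from the total gene counts per library, 3410161 to 5003725, with Python 3.11.15 and pandas 2.3.3. Intervals are exact Poisson intervals at 95%. Scaling by TMM (edgeR 4.0.16) and by DESeq2 1.42.0 size factors, other thresholds and leaving out each library were tried as alternatives. The counting steps were tested on simulated data. A symbol on several identifiers was counted by the identifier of highest mean. Exon overlaps were computed from the same annotation.

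The 126 gene lists, the members and the thresholds were chosen with earlier results of these data known. The rule for named genes took the 5 label markers, the 15 most abundant genes, the 25 most abundant protein-coding genes that are neither mitochondrially encoded nor ribosomal protein genes, and the 15 largest ratios between libraries at a mean of at least 20 CPM. From stage and receptor lists it took up to 8 members of at least 20 CPM and, in lists of up to 30 genes, members without counts, and from families the 2 leading members and up to 8 without counts. Not all are described, and some genes are not reported here. Other genes in the text, most of them trace members, genes under 20 CPM and genes of other lists, were chosen after their values were seen.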

Additional observations from a re-analysis of the deposited data

How the results depend on the processing

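The number of genes present was 11381 under TMM scaling, DESeq2 size factors and CPM alike. These scalings put the 1 CPM threshold at the same whole count in each library, so the equal number was fixed in advance and shows no robustness. It was 8694 at 5 CPM, 12491 at 0.5 CPM, 11638 with Gm42418 and mitochondrially encoded genes out of the totals, and 19748 for any count. Without those genes the 10 and 100 most abundant genes held 7.5% and 27.2% of the counts. The number of genes over 2-fold between libraries was 257 at a mean of at least 10 CPM, 85 at 50 CPM and 158 under TMM. Leaving out each library gave 11562 to 11728 genes present, 19.9% to 21.4% and 37.7% to 38.7% for the abundant genes, and 97 to 112 genes over 2-fold, 97 without replicate 2 and 104 without replicate 3. Summed myeloid markers then averaged 282 to 597 CPM, the lowest without replicate 2. Of 126 lists, the members present moved by more than 1.5 times in 23 at 5 CPM, in 12 at 0.5 CPM and in 15 without genes that share exon bases, an alternative chosen after seeing the data. Under TMM none of them could move, since the threshold fell on the same whole counts. No paired analysis was possible because no groups were compared. With 3 libraries of a single clone, levels near 1 CPM rest on few counts, and a gene without counts may still be expressed below 0.243 CPM.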

Other observations

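Stress and early response genes were uneven in level. Of 16 listed heat shock and immediate early genes 10 were present. The chaperone gene Hsph1 lay at 98.7, 104 and 104 CPM, and the AP-1 genes Jund, Junb and Jun lay at 75.9, 78.9 and 78.2, 69.3, 58.6 and 64.9 and 23.6, 19.1 and 25.8 CPM. Junb shares exon bases with Prdx2. Fos had 10 counts in all and Hspa1a, the inducible HSP70 gene, had 13. None of the 7 that averaged 5 CPM or more differed by over 2-fold between the libraries.

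Of 12 genes in the list of cytochrome c oxidase forms, 6 were present, 4 were trace and 2 had no counts. Cox8a, Cox7a2l and Cox6b1 had means of 442 ± 30.3, 265 ± 18.5 and 252 ± 21.5 CPM (SD, n = 3). All 6 present genes were highest in replicate 3, and 5 of them followed the order replicate 3, then 1, then 2. Cox7a1, Cox6a2, Cox6b2 and Cox4i2 had 12, 7, 2 and 1 counts in all, and Cox8b and Cox8c had none.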
